A study of Mus musculus with 132 samples.

Results

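A set of 9 transcription factors and cofactors of the paraxial and intermediate mesoderm were followed through blood cell differentiation of mouse embryonic stem cells. They were Six2, Eya1, Eya2, Tcf15, Meox1, Foxc1, Foxc2, Prrx1 and Osr1, matched by symbol in the count table as 9 of 25146 genes. The genes were chosen by their read counts in these same libraries, so their RNA values and calls are given below as a description, from which nothing is read. RNA had been sequenced in 23 libraries in 7 groups: undifferentiated mESC, Flk1+ mesoderm sorted at day 4, and CD41+ haematopoietic progenitor cells (HPCs) sorted at day 7, with mesoderm and HPCs taken from wild-type cells and from P1-CTCF-KO or P2-CTCF-KO mutants.

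All cells of the RNA libraries came from E14-TG2a, a male mouse embryonic stem cell line grown without feeders in LIF. They were differentiated as embryoid bodies with BMP4, Activin A and bFGF, and then with SCF and VEGF. In the P1-CTCF-KO or P2-CTCF-KO mutants, CRISPR/Cas9 had removed the binding site of the chromatin boundary protein CTCF next to the P1 or the P2 promoter of Runx1, the master regulator of blood cell emergence. The deletions lie at Runx1 and outside the 9 genes, and were not checked in the counts. Each genotype had 3 clones, each grown from a single colony: the wild-type clones were C8.1, C6.1 and B9.3, the P1-CTCF-KO clones E9.1, E7.2 and E7.1, and the P2-CTCF-KO clones E9.1, D2.1 and D10.1 (the shared name E9.1 belongs to separate clones). The paper describes 2 separate targeting events for P1-CTCF-KO clones and 3 for P2-CTCF-KO clones, so clones of a mutant may share an event. Wild-type HPCs had 4 libraries, with clone B9.3 present in 2 of them, and P2-CTCF-KO HPCs had 5, with D10.1 and D2.1 present in 2 each. The other mesoderm and HPC groups had 3 libraries. The 2 undifferentiated libraries were technical replicates of wild-type cells.

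These factors act at the time when mesoderm is divided along its axis from the midline outwards. Paraxial mesoderm lies beside the neural tube and forms the somites, from which muscle, cartilage and dermis arise. Intermediate mesoderm forms kidney and gonad, and lateral plate mesoderm gives rise to heart, vessels and the first blood cells. Flk1, a VEGF receptor encoded by Kdr, marks mesoderm with haemangiogenic potential. Proteins of the Six2 family bind DNA, and EYA proteins join them as coactivators that also carry phosphatase activity. Six2 maintains nephron progenitors in the kidney, and Eya1 acts with it there. Tcf15 (Paraxis) is a bHLH factor needed for epithelial somites, and Meox1 is a somite homeobox factor. The forkhead factors Foxc1 and Foxc2 act in paraxial mesoderm and in vessels. Prrx1 is a homeobox factor of limb bud and craniofacial mesenchyme, and Osr1 is a zinc finger factor of early intermediate mesoderm.

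The start sites of these genes were examined in open chromatin, a readout that had no part in choosing them. Wild-type ATAC-seq peaks, which mark DNA accessible to a transposase, lay within 1 kb of the start site of 6 of the 9 genes in mesoderm. Of all 24961 genes with a single span, 55.2% had such a peak. The 6 genes were Six2, Eya1, Tcf15, Foxc1, Foxc2 and Osr1. The sequences of the intergenic or intronic peaks among them are shown because they are the promoter-proximal DNA that was open in mesoderm and not called open in HPCs. They are given in build mm9 on the gene's own strand, 5′ to 3′, and capitals mark the letters CCAAT or their reverse complement ATTGG.
Six2 proximal peak, chr17:86087605-86087769, gene on the minus strand: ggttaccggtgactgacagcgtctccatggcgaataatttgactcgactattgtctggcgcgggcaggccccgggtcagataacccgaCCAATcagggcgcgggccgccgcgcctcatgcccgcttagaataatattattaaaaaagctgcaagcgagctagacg
Six2 distal peak, chr17:86087821-86087943, gene on the minus strand: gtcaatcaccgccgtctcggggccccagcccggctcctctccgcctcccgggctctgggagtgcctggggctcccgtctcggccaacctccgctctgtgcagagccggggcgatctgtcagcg
Tcf15 peak, chr2:151969180-151969281, gene on the plus strand: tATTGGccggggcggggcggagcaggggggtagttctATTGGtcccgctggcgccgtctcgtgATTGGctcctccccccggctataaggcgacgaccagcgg
Foxc1 peak, chr13:31898326-31898438, gene on the plus strand: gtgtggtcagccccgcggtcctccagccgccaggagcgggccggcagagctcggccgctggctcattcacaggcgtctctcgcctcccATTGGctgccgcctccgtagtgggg
Foxc2 peak, chr8:123639972-123640055, gene on the plus strand: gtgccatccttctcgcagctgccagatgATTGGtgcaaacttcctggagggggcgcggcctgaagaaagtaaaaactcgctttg

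The midpoints of these peaks lay upstream of the start sites, at 93 and 288 bp for Six2, 114 bp for Tcf15, 132 bp for Foxc1 and 56 bp for Foxc2. The Foxc2 peak lay in an intron of the overlapping transcript Gm20388 in GENCODE vM1, and the others were intergenic. In windows of 100 bp centred on a peak, CCAAT on either strand was found in 4 of the 7 start-site windows of these genes and in 20.0% of all 17805 mesoderm start-site peaks. The 4 were one Six2 peak and the peaks of Tcf15, Foxc1 and Foxc2, and no CCAAT match overlapped a match to another motif searched. The GC box GGGCGG was found in 1 of the 7 (Tcf15) against 35.7% of all, the E-box CANNTG in 1 (Foxc2) against 26.9%, and GATAA in 1 (Six2) against 4.84%. TGTGGT and GGTGTGA, letters of RUNX and T-box sites, were in none of these 7 windows and in 3.95% and 0.910% of all. The Foxc1 peak shown above does hold TGTGGT, at its bases 2 to 7, outside its central window. The 100-bp windows were rich in CG dinucleotides, with 8 to 12 in the 6 peaks of Six2, Eya1, Tcf15, Foxc1 and Osr1 and 4 at Foxc2, beside a median of 7 over all start-site peaks. A letter match is not evidence that a factor bound there.

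The RNA libraries were shallow for low genes. Total counts per library ran from 7805102 to 24406998, but entries made of ribosomal or multi-locus repeats took 68.1% to 76.3% of them in undifferentiated mESC and 87.8% to 91.0% in mesoderm and HPCs. The genes Cmss1, Cdk8 and Lars2 took a further 52.4% to 77.6% of what was left in mesoderm and HPCs. This left 311313 to 1040408 counts for other genes in those libraries and 3877636 to 7005809 in undifferentiated mESC. Levels are given in counts-per-million (CPM) of library size scaled by the TMM method. One count was worth 0.0412 to 0.203 CPM in mesoderm and HPC libraries, so a single read there cannot be compared with the 0.00546 to 0.00981 CPM of a single read in undifferentiated mESC. Libraries of one group differed by more than sampling noise in every pair, with a chi-square of 2.53 to 35.1 per gene, and none was counted as a duplicate. The cells carried the labels' defining markers: all 5 pluripotency markers fell and 7 of the 8 tested haemato-endothelial markers rose from undifferentiated mESC to wild-type mesoderm. From there to wild-type HPCs 5 of the 8 rose, among them Itga2b, which encodes CD41, and Kdr and Cdh5 fell.

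Across all 23 libraries Eya1 was the most counted of the 9 genes, with 613 counts and at least 1 in every library, and Osr1 the least, with 7 counts in 3 libraries. Tcf15 had 305 counts in 6 libraries, Eya2 157 in 22, Six2 123 in 13, Prrx1 121 in 13, Foxc1 81 in 14, Foxc2 19 in 6 and Meox1 18 in 10. The mesoderm libraries held nearly all counts of Six2 (96.7%), Prrx1 (90.1%) and Foxc2 (89.5%), most of those of Foxc1 (74.1%) and all those of Osr1. They held 25.9% of the counts of Eya1, 22.2% of Meox1, 15.9% of Eya2 and 1.97% of Tcf15. Since these are bulk libraries, fewer cells expressing a gene and less RNA per cell cannot be told apart.

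**Figure D1:**
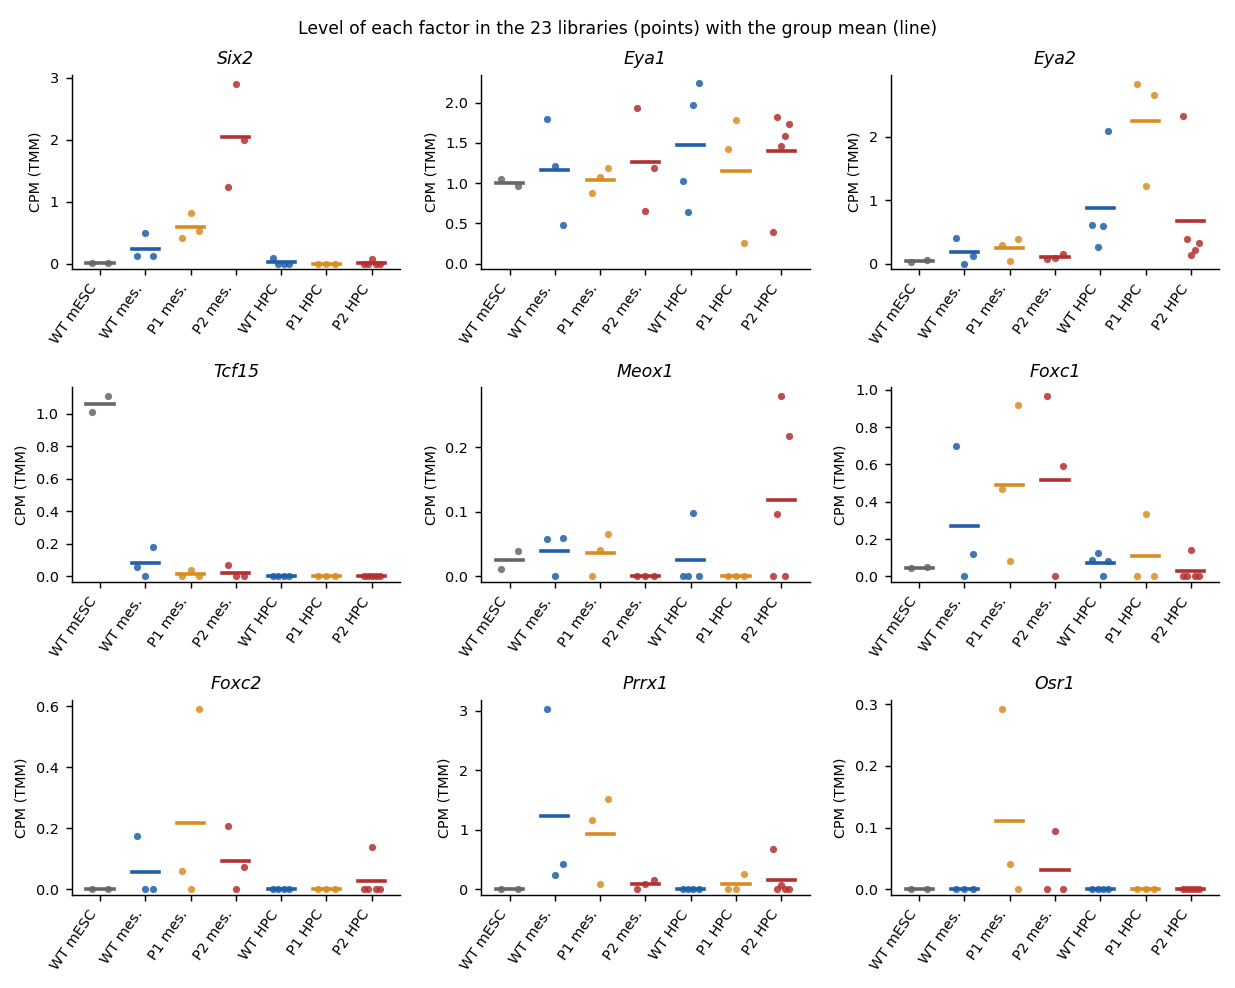
Level of each of the 9 factors in CPM (TMM scale, vertical axis, separate for each gene) in the 7 groups of libraries; points are libraries and short lines are group means. Six2 is highest in the 3 P2-CTCF-KO mesoderm libraries, at 1.24 to 2.91 CPM, Tcf15 in the 2 undifferentiated libraries, and Eya2 in HPC libraries, whereas Eya1 lies at a similar height in all groups.

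Compared per kilobase of gene span, the leading gene differed between groups. In undifferentiated mESC, Tcf15 stood at 0.193 CPM per kb, followed by Foxc1 at 0.0116 and Eya1 at 0.00711. In wild-type mesoderm Foxc1 had 0.0683 ± 0.0934 CPM per kb (SD, n = 3) and Six2 had 0.0604 ± 0.0532, an order that lies within their spread. In P2-CTCF-KO mesoderm Six2 came first at 0.514 ± 0.209 CPM per kb (SD, n = 3) and Foxc1 second at 0.130 ± 0.122, and their libraries did not overlap. The spans include introns, because reads had been counted over both exons and introns.

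Six2 was counted almost exclusively in mesoderm, and there its level was highest in P2-CTCF-KO, lower in P1-CTCF-KO and lowest in wild type. It lies at chr17:86083607-86087594. Undifferentiated mESC had 1 count in each library (0.00546 and 0.00981 CPM). Wild-type mesoderm had 2, 4 and 2 counts in B9.3, C6.1 and then C8.1 (0.116, 0.486 and 0.120 CPM). P1-CTCF-KO mesoderm had 7, 20 and 8 counts in E7.1, E7.2 and E9.1 (0.409, 0.823 and 0.525 CPM). P2-CTCF-KO mesoderm had 18, 31 and 27 counts in D10.1, D2.1 and E9.1 (1.24, 2.91 and 2.00 CPM). Every P2-CTCF-KO library was above every wild-type and every P1-CTCF-KO library, and P1-CTCF-KO overlapped wild type through E7.1 and C6.1. With libraries scaled by their non-ribosomal totals and no TMM factor, P2-CTCF-KO still lay above wild type, but its lowest library (8.63 CPM) was under the highest of P1-CTCF-KO (8.74 CPM). In HPCs Six2 was at 0 in 10 of 12 libraries, with 1 count in wild-type B9.3 and 1 in P2-CTCF-KO D2.1.

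In counts pooled over a group, Six2 was 10.3-fold higher in P2-CTCF-KO than in wild-type mesoderm (95% counting interval 4.99 to 24.8), 3.18-fold higher in P2-CTCF-KO than in P1-CTCF-KO (2.1 to 4.89), and 3.25-fold higher in P1-CTCF-KO than in wild type (1.48 to 8.11). These intervals cover counting error only. Without wild-type C6.1 the ratios to wild type were 16.6 for P2-CTCF-KO and 5.23 for P1-CTCF-KO. Between wild-type mesoderm and undifferentiated mESC the ratio was 27.1 (5.41 to 262), from 8 counts against 2, and 16.9 without C6.1. The size of this ratio depends on the scaling. On non-ribosomal totals with no TMM factor, Six2 was at 0.937 to 2.05 CPM in wild-type mesoderm and 0.129 to 0.206 CPM in undifferentiated mESC. Between stages of one genotype, mesoderm was 7.91-fold higher than HPCs in wild type (1.06 to 351), at least 4.48-fold higher in P1-CTCF-KO against a floor of 3 counts over the HPC group, and 106-fold higher in P2-CTCF-KO (18.4 to 4224). These values rest on few HPC reads: they were 4.92-fold without mesoderm C6.1 and at least 1.90-fold without HPC B9.3 in wild type, at least 2.64-fold without HPC E7.2 and 2.86-fold without HPC E9.1 in P1-CTCF-KO, and at least 25.8-fold without HPC D2.1 in P2-CTCF-KO. The fitted log2 fold change was 3.32 (SE 0.57) for P2-CTCF-KO against wild-type mesoderm, 1.56 (SE 0.62) for P1-CTCF-KO against wild type, and 1.76 (SE 0.46) for P2-CTCF-KO against P1-CTCF-KO. The comparisons with wild type share the same 3 wild-type libraries.

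The mesoderm groups also differed in markers of the primitive streak, the tissue from which mesoderm emerges. The summed level of the 3 streak markers T, Eomes and Mixl1 was 1.74 to 12.3 CPM in wild-type, 3.81 to 11.3 in P1-CTCF-KO and 28.0 to 62.3 in P2-CTCF-KO mesoderm, with no marker at 0 in any of these libraries. None of the 3 was called by edgeR in P2-CTCF-KO against wild type, and all 3 were called higher by DESeq2. Mesp1, Lhx1 and Dll3 are named here after their values were seen. They come from fixed lists of paraxial and intermediate mesoderm genes, which did not all go one way. In P2-CTCF-KO against wild-type mesoderm, 1409 of all 8778 genes tested had an unadjusted p under 0.05 by edgeR. At that threshold 3 of 5 tested paraxial genes were higher and 1 lower. Both intermediate mesoderm genes tested were higher, and Cdx2 of the paraxial list was called lower by DESeq2 in P2-CTCF-KO than in P1-CTCF-KO. Mesp1, a factor of nascent mesoderm, had 0 to 7 counts in wild-type, 1 to 13 in P1-CTCF-KO and 18 to 38 in P2-CTCF-KO mesoderm libraries. Lhx1, a factor of streak and intermediate mesoderm, had 0 to 12, 2 to 21 and 41 to 119 counts. Dll3, a Notch ligand of presomitic mesoderm, had 0 to 7, 0 to 18 and 16 to 49 counts. Among P2-CTCF-KO libraries the one with the most Six2 reads, D2.1, had the fewest Mesp1 reads (18), whereas C6.1 and E7.2 led their genotypes in both. These reads are not scaled for depth. D2.1 had 534140 counts for other genes, against 671991 in D10.1 and 606903 in E9.1, and E7.2 was the deepest P1-CTCF-KO mesoderm library. The part of these markers in the Six2 difference was not tested.

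**Figure D2:**
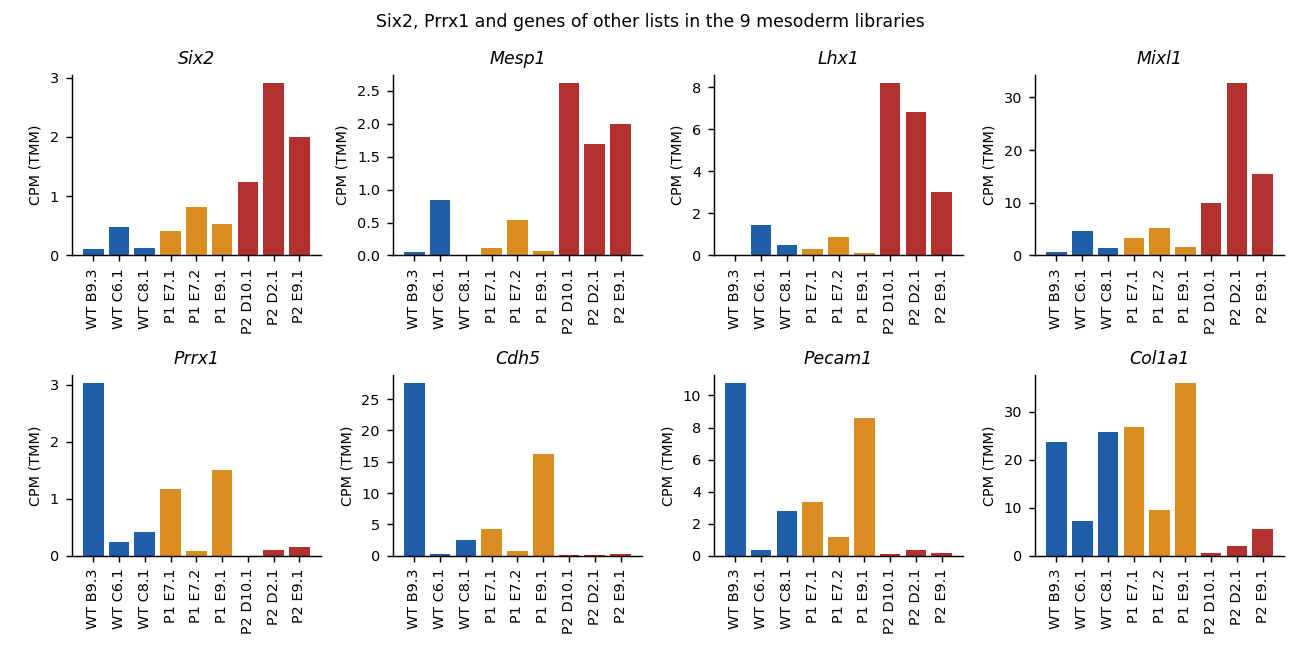
Level in CPM (TMM scale, vertical axes starting at 0) of Six2, Mesp1, Lhx1, Mixl1, Prrx1, Cdh5, Pecam1 and Col1a1 in each of the 9 mesoderm libraries; bars are single libraries, coloured by genotype. Six2, Mesp1, Lhx1 and Mixl1 are highest in the P2-CTCF-KO libraries, where Prrx1 reaches at most 0.148 CPM, Pecam1 0.375, Cdh5 0.296 and Col1a1 5.63.

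The coactivator Eya1 (chr1:14159038-14300280) had similar levels at all stages and genotypes on the TMM scale. Group means were 1.17 ± 0.662 CPM in wild-type, 1.04 ± 0.155 in P1-CTCF-KO and 1.26 ± 0.639 in P2-CTCF-KO mesoderm (SD, n = 3 each). In HPCs they were 1.47 ± 0.762 (n = 4), 1.15 ± 0.801 (n = 3) and 1.40 ± 0.583 (n = 5). Undifferentiated mESC had 1.05 and 0.961 CPM. Pooled ratios between groups ran from 0.746 to 1.32 and every pair of groups compared overlapped on that scale. Single libraries moved them: without wild-type mesoderm B9.3 the ratio of wild-type HPCs to mesoderm was 2.13 and that of P2-CTCF-KO to wild-type mesoderm 1.82, and without E7.2 that of P1-CTCF-KO to wild-type HPCs was 0.456. On library totals with no TMM factor, undifferentiated mESC (20.2 to 24.8 CPM) lay above wild-type mesoderm (3.75 to 15.6 CPM) without overlap, and the fitted log2 fold change between them was -1.46, against 0.21 with TMM factors. Eya1 lies inside the span of the multi-locus entry LOC108167347, and how reads shared by the pair were assigned is not known here.

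Eya2 (chr2:165420527-165597227) was counted most often in HPCs, in contrast to its partner gene Six2. Wild-type mesoderm had 7, 0 and 2 counts in B9.3, C6.1 and then C8.1, or 0.407, 0 and 0.120 CPM. Wild-type HPCs had 7, 2, 6 and 25 (0.601, 0.256, 0.592 and 2.08 CPM for B9.3, B9.3-2, C6.1 and C8.1). P1-CTCF-KO mesoderm had 5, 1 and 6 counts (0.292, 0.0412 and 0.394 CPM), and P1-CTCF-KO HPCs had 14, 11 and 21 (2.84, 1.23 and 2.66 CPM for E7.1, E7.2 and E9.1). P2-CTCF-KO mesoderm had 1, 1 and 2 counts (0.0689, 0.0938 and 0.148 CPM), and P2-CTCF-KO HPCs had 24, 4, 2, 2 and 3 (2.32, 0.384, 0.140, 0.211 and 0.326 CPM for D10.1, D10.1-2, D2.1, D2.1-2 and E9.1). HPCs and mesoderm did not overlap in P1-CTCF-KO, where the pooled ratio was 9.98 (95% counting interval 5.20 to 20.7), and overlapped in the other genotypes, where it was 4.50 (2.15 to 10.5) in wild type and 6.30 (2.25 to 24.4) in P2-CTCF-KO. The wild-type ratio was 2.37 without HPC library C8.1 and 12 without mesoderm B9.3, and the P1-CTCF-KO ratio 6.22 without mesoderm E7.2. The P2-CTCF-KO ratio was 2.45 without D10.1, and a second library of that clone, D10.1-2, had 4 counts. The fitted log2 fold change of Eya2 between wild-type HPCs and mesoderm was 2.14 (SE 0.82). Among HPCs it was 1.29 (SE 0.83) for P1-CTCF-KO against wild type and -0.43 (SE 0.78) for P2-CTCF-KO against wild type, and became -1.77 for the latter without D10.1.

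Tcf15 (chr2:151969344-151974832) was a gene of undifferentiated mESC in these libraries. It had 186 and 113 counts there (1.02 and 1.11 CPM), 1, 0 and 3 counts in wild-type mesoderm (0.0581, 0 and 0.180 CPM), 1 count in each mutant mesoderm group, and none in any HPC library. Both undifferentiated libraries were above all others. Wild-type mesoderm was 11.0-fold below undifferentiated mESC in pooled counts (95% counting interval 4.26 to 40.7), or 26.7-fold without mesoderm C8.1, with a fitted log2 fold change of -3.46 (SE 0.64). The size of this fold depends on the scaling. On non-ribosomal totals with no TMM factor, Tcf15 was at 0 to 1.41 CPM in wild-type mesoderm and 23.3 to 24.0 CPM in undifferentiated mESC. Ribosomal RNA depletion is described for undifferentiated mESC and not for the differentiated cells, so stage and library preparation cannot be told apart in any comparison with undifferentiated mESC. The somite factor Meox1 (chr11:101738823-101755668) never exceeded 4 counts in a library. Its highest values were 4 counts in undifferentiated library 2 (0.0392 CPM) and 4 in P2-CTCF-KO HPC D2.1 (0.279 CPM), and P2-CTCF-KO mesoderm had none.

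Foxc1 and Foxc2, the paired forkhead factors, overlapped in the libraries that held them, and no mesoderm library had Foxc2 reads without Foxc1 reads. Foxc1 (chr13:31898514-31902504) had 12, 0 and 2 counts in wild-type mesoderm (0.697, 0 and 0.120 CPM). It had 8, 2 and 14 in P1-CTCF-KO (0.467, 0.0823 and 0.919 CPM) and 14, 0 and 8 in P2-CTCF-KO (0.964, 0 and 0.592 CPM). Clones C6.1 and D2.1 thus had none, and the 3 genotypes overlapped. Foxc2 (chr8:123640070-123642794) had 3, 0 and 0 counts in wild type, 1, 0 and 9 in P1-CTCF-KO and 3, 0 and 1 in P2-CTCF-KO, and every library with Foxc2 reads also had at least 8 Foxc1 reads in mesoderm. In HPCs Foxc1 had 0 to 3 counts per library and Foxc2 was seen in P2-CTCF-KO D2.1 alone, with 2 counts (0.140 CPM). The fitted log2 fold change of Foxc1 was 0.52 (SE 1.09) for P1-CTCF-KO and 0.81 (SE 1.10) for P2-CTCF-KO against wild-type mesoderm, and became 2.43 and 2.71 without wild-type B9.3. Foxc2 lies within the span of the multi-locus entry Tsnax.

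Prrx1, the mesenchymal homeobox factor at chr1:165175249-165243781, was highest in 1 wild-type clone, followed by 2 of the 3 P1-CTCF-KO clones, and low in all P2-CTCF-KO mesoderm. Wild type had 52, 2 and 7 counts in B9.3, C6.1 and then C8.1 (3.02, 0.243 and 0.421 CPM), and P1-CTCF-KO had 20, 2 and 23 in E7.1, E7.2 and E9.1 (1.17, 0.0823 and 1.51 CPM). P2-CTCF-KO had 0, 1 and 2 in D10.1, D2.1 and E9.1 (0, 0.0938 and 0.148 CPM). P2-CTCF-KO lay below wild type without overlap, and overlapped P1-CTCF-KO through E7.2. With each library scaled by its non-ribosomal total and no TMM factor, the lowest wild-type library (1.02 CPM) was under the highest P2-CTCF-KO library (1.05 CPM), so that order depends on the scaling.

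In pooled counts, Prrx1 was 18.7-fold lower in P2-CTCF-KO than in wild-type mesoderm (95% counting interval 6.1 to 93.2) and 10.2-fold lower than in P1-CTCF-KO (3.29 to 51.5). Its fitted log2 fold change was -3.93 (SE 1.39) for P2-CTCF-KO and -0.59 (SE 0.91) for P1-CTCF-KO against wild type. Both rest on wild-type B9.3: without it the values were -2.04 and 1.30, and the pooled ratio to P2-CTCF-KO was 4.67-fold. Without D10.1 or E9.1 of P2-CTCF-KO, that ratio was 11.7-fold or 36.5-fold, and the ratio to P1-CTCF-KO 6.40-fold or 20.0-fold, and the latter was 17.1-fold without E7.2. Undifferentiated mESC had 1 Prrx1 count per library, and wild-type HPCs had none, at least 20.1-fold below wild-type mesoderm against the floor of 3 counts, or at least 5.02-fold without B9.3. In mutant HPCs Prrx1 had 2 counts in P1-CTCF-KO E9.1, 7 in P2-CTCF-KO D10.1 and 1 in P2-CTCF-KO D2.1.

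Endothelial and mesenchymal markers also varied between the mesoderm libraries. By counts, Cdh5 ranked the clones as Prrx1 did within wild type and within P1-CTCF-KO. Col1a1 did so within P1-CTCF-KO and within P2-CTCF-KO, and in wild type differed in the order of B9.3 and C8.1 alone. The endothelial cadherin Cdh5 had 473, 3 and 43 counts in wild type, 74, 20 and 248 in P1-CTCF-KO and 1, 1 and 4 in P2-CTCF-KO, in the order of clones used above. The collagen gene Col1a1 had 408, 59 and 429, then 459, 231 and 547, and then 9, 21 and 76 counts, so that C8.1 led wild type in Col1a1 and B9.3 in Prrx1. Pdgfra, a receptor of mesenchyme and paraxial mesoderm in the same marker list, went the other way, with 5.52 to 8.74 CPM in wild-type, 7.02 to 8.19 in P1-CTCF-KO and 14 to 17.3 in P2-CTCF-KO mesoderm. It was called higher in P2-CTCF-KO than in either by DESeq2 and not by edgeR, whereas Col1a1 was called lower by DESeq2 in P2-CTCF-KO than in P1-CTCF-KO alone. Cdh5 and the adhesion molecule Pecam1 were called lower by DESeq2 in P2-CTCF-KO than in wild type, and none of the 7 haemato-endothelial markers tested was called by edgeR. The summed level of the 9 haemato-endothelial markers was 42.7 to 85.4 CPM in wild-type, 42.4 to 74.8 in P1-CTCF-KO and 28.0 to 39.8 in P2-CTCF-KO mesoderm. That of the 5 mesenchyme and smooth muscle markers was 16.1 to 35.6, 18.4 to 45.0 and 17.4 to 20.1 CPM. At most 1 haemato-endothelial marker and 2 mesenchyme markers were at 0 in a mesoderm library. The part of these markers in the Prrx1 difference was not tested.

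Osr1 (chr12:9581247-9588306) had reads in mutant mesoderm alone: 5 counts in P1-CTCF-KO E7.1 (0.292 CPM), 1 in E7.2 (0.0412 CPM) and 1 in P2-CTCF-KO D2.1 (0.0938 CPM). The 0 counts of wild-type mesoderm allow a level of up to 0.0713 CPM over the group, counting error only. Of the 6 counts in P1-CTCF-KO mesoderm, 5 came from E7.1, so no fold is given. No wild-type library of any stage had an Osr1 read.

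Few of these genes passed the filter that asks for about 10 counts in as many libraries as the smallest group. A gene was called at an adjusted p under 0.05 by edgeR with an absolute log2 fold change over 1. From undifferentiated mESC to wild-type mesoderm, 3 of the 9 passed the filter and 1, Tcf15, was called, where 24.4% of all 12899 genes tested were called. Without either of the undifferentiated libraries, which are technical replicates, Tcf15 was not called, and 8.56% or 8.17% of all genes tested were. From wild-type mesoderm to HPCs 3 passed and none was called by edgeR, beside 23.3% of all genes, and none by DESeq2, beside 23.7%. For Tcf15 this fit returned a log2 fold change of -4.99 that depends on the prior count, since HPCs had no reads.

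Among mesoderm groups, Six2, Eya1, Foxc1 and Prrx1 passed the filter. None was called by edgeR in P1-CTCF-KO against wild type (0% of all 8778 genes), in P2-CTCF-KO against wild type (0.0342%) or in P2-CTCF-KO against P1-CTCF-KO (0%). At an unadjusted p under 0.05, Six2 was higher in all 3 comparisons and Prrx1 was lower in the pair that involved P2-CTCF-KO, beside 166, 1409 and 987 of all genes. By DESeq2, Six2 was called higher in P2-CTCF-KO than in wild type, where 1.97% of all genes were called. No member was called by DESeq2 in P1-CTCF-KO against wild type (0%) or in P2-CTCF-KO against P1-CTCF-KO (1.26%). In HPCs only Eya1 and Eya2 passed the filter, and neither tool called them in P1-CTCF-KO (0% of 7422 genes by edgeR and 0% by DESeq2) or in P2-CTCF-KO (0% by each). Because the genes were selected on these counts, these calls are given as values and nothing is read from them.

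**Figure D3:**
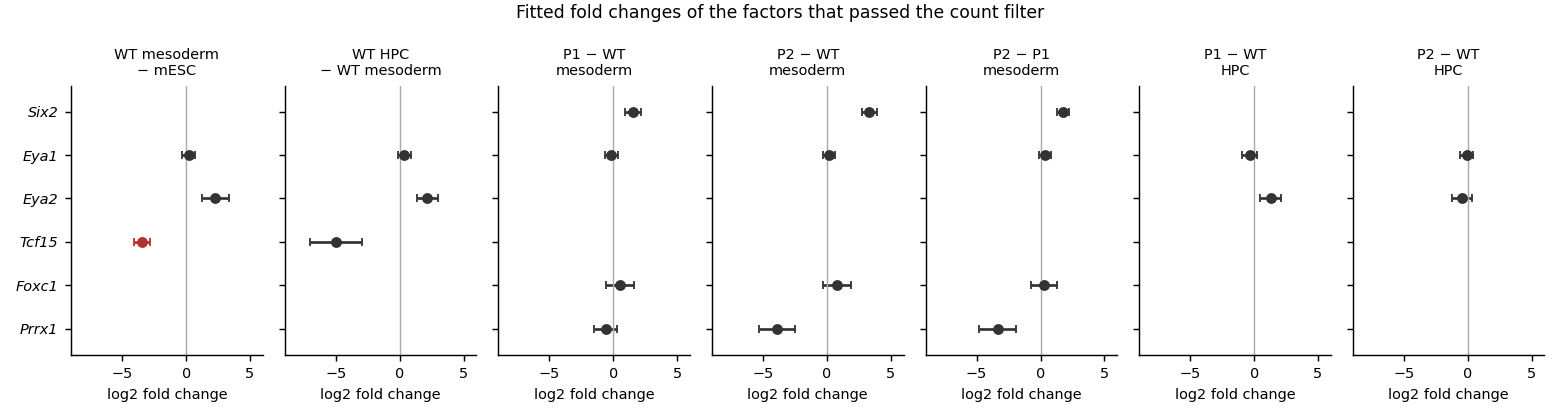
Fitted log2 fold change (edgeR, points) with its standard error (bars) for the factors that passed the count filter in each of the 7 comparisons, 1 panel each; a factor missing from a panel did not pass. Red marks a call, which Tcf15 alone received, at -3.46 in wild-type mesoderm against undifferentiated mESC; Six2 lies right of 0 and Prrx1 left of 0 in P2-CTCF-KO mesoderm.

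For each factor with at least 10 counts in 3 or more mesoderm libraries, the genes with the most similar profile over the 9 mesoderm libraries are given by Pearson's r of log2(CPM + 0.5). For Six2 they were Ing5 (r = 0.978), Erh (0.968) and Tgfb1i1 (0.968). For Prrx1 they were Rhoj (0.990), Itpkb (0.986) and Ppp1r16b (0.985). For Eya1 they were Zbtb22 (0.942), Dclk2 (0.916) and Tubgcp6 (0.896), and for Foxc1 Stau1 (0.937), Calm3 (0.928) and Dtx4 (0.921). Among 8777 other genes, 267 had an r over 0.9 with Prrx1, 59 with Six2, 8 with Foxc1 and 2 with Eya1. The 9 points are separate clones that fall into 3 genotypes and differ in depth, and the best of that many profiles is high by selection.

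Other genes of the same territories were taken from fixed lists. Between undifferentiated mESC and wild-type mesoderm, 1389 of all 12899 genes tested rose and 1757 fell. Of 23 further genes of paraxial mesoderm and somites, 6 were tested between these stages and 2 rose. These were Cdx2, a caudal homeobox factor (log2 fold change 4.24, SE 0.71, edgeR adjusted p = 0.0032), and Rspo3, a secreted enhancer of Wnt signalling (7.16, SE 0.51, edgeR adjusted p = 1.8e-05). Both fell again in HPCs, with log2 fold changes of -8.40 (SE 1.56) for Cdx2 and -5.80 (SE 0.44) for Rspo3. The summed level of the list was 8.43 to 15.2 CPM in wild-type mesoderm, 1.68 CPM in both undifferentiated libraries and 0.0986 to 1.29 CPM in wild-type HPCs. Of 14 genes of intermediate mesoderm and early kidney, 2 were tested and 1, the zinc finger gene Sall1, which pluripotent cells also express, fell from undifferentiated mESC to mesoderm (-1.96, SE 0.32) and again to HPCs (-4.81, SE 0.51). The median log2 fold change of the tested paraxial genes was 0.38 from undifferentiated mESC to mesoderm and -3.57 from mesoderm to HPCs, beside medians of -0.18 and -0.01 over all genes tested.

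Paralogs and partners of the 9 factors formed a list of 16, of which 9 were tested between the wild-type stages. Dach1, a cofactor of Six2-family and EYA proteins, rose in mesoderm by 2.64 (SE 0.52), Prrx2, the paralog of Prrx1, by 2.54 (SE 0.52), and the forkhead factor Foxf1 by 9.48 (SE 1.47). From mesoderm to HPCs 5 fell, beside 1618 of all 12899 genes tested: Dach1, Eya4, Foxf1, Prrx2 and Six4. Their fitted log2 fold changes lay between -7.91 (Eya4) and -2.26 (Dach1). Among mesoderm genotypes none of the tested genes of the 3 lists was called by edgeR in any comparison. At an unadjusted p under 0.05, P2-CTCF-KO against wild type had 3 paraxial genes higher and 1 lower of 5 tested, both intermediate mesoderm genes higher, and none of 7 paralogs. Of all 8778 genes tested there, 1409 were under that p in either direction. By DESeq2, Sall1 was higher in P2-CTCF-KO than in wild type and Cdx2 was lower in P2-CTCF-KO than in P1-CTCF-KO. Median log2 fold changes in P2-CTCF-KO against wild type were 2.86, 2.40 and -0.19 for the 3 lists, beside 0.01 over all genes tested. In HPC comparisons no paraxial or intermediate mesoderm gene of the lists passed the filter, and 1 paralog did, without a call.

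Open chromatin at the start sites of the 9 factors was called more often in mesoderm than in HPCs, as it was over all genes. A mesoderm peak within 1 kb was found for 6 of 9 genes, beside 55.2% of all 24961 genes with a single span, and an HPC peak for 2 of 9 (Eya1 and Osr1), beside 37.1%. With only peaks wider than the median of their list, the counts were 2 of 9 in mesoderm (Six2 and Eya1), beside 45.7% of all genes, and 1 of 9 in HPCs, beside 27.1%. Of the 13784 genes with a mesoderm start-site peak, 65.3% also had an HPC peak there, and of the 6 factors 33.3% did. The mesoderm list held 76766 peaks from 4 merged libraries of 2 experiments. The HPC list held 29037 peaks from 2 merged libraries of 1 experiment. Each list was called once, so these shares have no replicate error. Neither the shares nor the part of the unequal merging in them was tested. Osr1 had start-site peaks at both stages although wild-type libraries held none of its reads. Tcf15 had a mesoderm peak with 4 reads in 3 wild-type mesoderm libraries. Six2, with a pair of mesoderm start-site peaks, had no HPC peak there, and neither did Tcf15, Foxc1 and Foxc2. In wild-type HPCs, Six2 was at 0 in 3 of 4 libraries, Tcf15 and Foxc2 in 4 of 4, and Foxc1 in 1 of 4.

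Eya2, Meox1 and Prrx1 had no ATAC-seq peak within 1 kb at either stage. The nearest mesoderm peaks of Prrx1 and Meox1 lay downstream of their start sites, at 1526 and 9045 bp, in introns. The Eya2 start in the count table, 165420527, lies upstream of its GENCODE vM1 start at 165480798, and the mesoderm list has peaks at chr2:165476605-165476671 and chr2:165479249-165479329, so the absence of a peak at the table's start depends on the annotation. In 416B cells, a mouse haematopoietic progenitor line, Eya2 was the 1 factor of the 9 with a CTCF peak within 1 kb, beside 12.8% of all genes. The edge of that peak was 984 bp from the table's start, which is subject to the same doubt. Within 500 bp none of the 9 had a CTCF peak (9.11% of all genes), none had one with at least 50% of its width inside 1 kb (11.9%), and within 5 kb 4 did (32.2%).

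**Figure D4:**
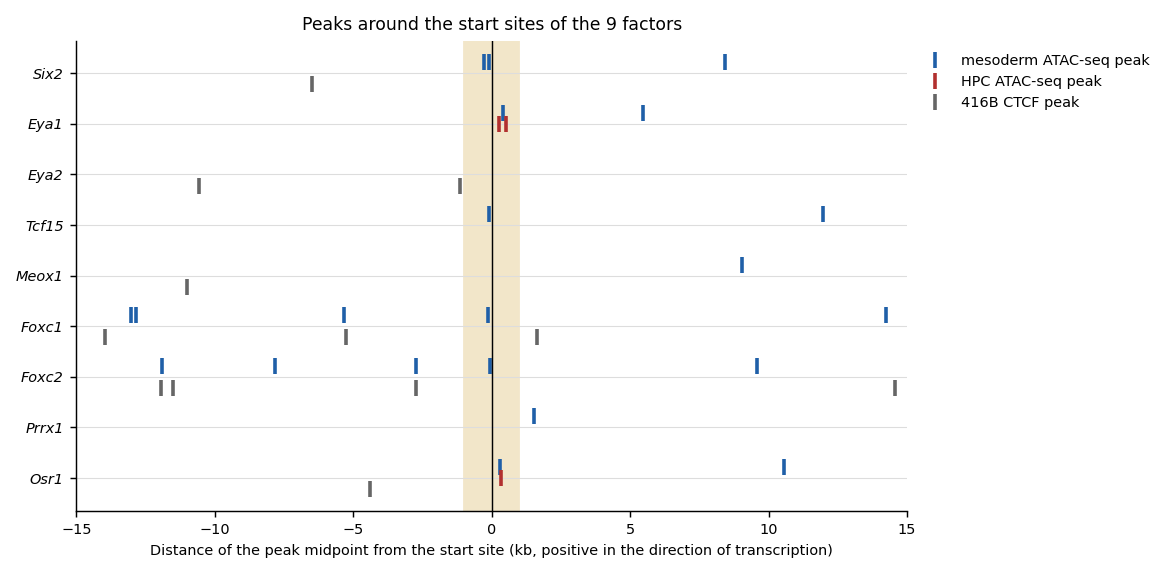
Midpoints of ATAC-seq peaks in wild-type mesoderm and HPCs and of CTCF peaks in 416B cells (1 symbol each) against the distance from each factor's start site, up to 15 kb to either side in the direction of transcription; the band marks 1 kb on either side. Within the band, mesoderm peaks are seen for 6 factors and HPC peaks for Eya1 and Osr1.

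Within 50 kb of the 9 genes lay 47 mesoderm peaks, of which 7 (14.9%) overlapped an HPC peak, beside 25.8% of all 76766 mesoderm peaks. The 7 were the start-site peaks of Eya1 and Osr1, a pair downstream of Six2, a pair upstream of Tcf15 and 1 upstream of Prrx1. Of the 7, 3 overlapped a CTCF peak of 416B cells, beside 25.3% of all peaks shared by the stages. They were 1 each near Six2, Tcf15 and Prrx1. Among the other 40 peaks 9 (22.5%) did so, beside 16.0% of all mesoderm peaks without an HPC peak. The ATAC-seq cells carried a Runx1 reporter and an enhancer transgene, and no peak list of P1-CTCF-KO or P2-CTCF-KO ATAC-seq was used here.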

How the data were processed

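The deposited counts were whole-number reads per gene that the authors obtained from poly(A)-minus RNA-seq with STAR (mm9) and featureCounts over exons and introns; annotation and strand setting are not given in the sources used here, so reads of overlapping genes cannot be separated. Peaks had been called by the authors with MACS2 on merged libraries and deposited as coordinates (mm9). The 9 genes and all lists were chosen with earlier results of these data known. Named genes are the 9 factors, list genes called in a comparison, and the 3 most similar profiles per factor. Mesp1, Lhx1 and Dll3 were not called in any comparison and were added after their values were seen. Counts were fitted with edgeR 4.0.16 (R 4.3.3; quasi-likelihood, TMM, filterByExpr minimum count 10, Benjamini-Hochberg) on the 9 wild-type, 9 mesoderm or 12 HPC libraries, and checked with DESeq2 1.42.0. The code was tested on simulated data with 200 changed genes. For wild-type mesoderm against undifferentiated mESC, edgeR called 78 genes, of which 68 were changed and 10 were not. For P1-CTCF-KO against wild type it called 119 genes in mesoderm and 95 in HPCs, with 3 unchanged in each. In simulated data without changes it called 0, 2 and 0 genes in these 3 comparisons. P-values measure the spread between libraries. These were separate clones in mesoderm and in P1-CTCF-KO HPCs, where clones of a mutant may share a targeting event, and technical replicates in undifferentiated mESC. In wild-type and P2-CTCF-KO HPCs they mixed clones with repeat libraries of the same clones, which the fits counted as independent. Ratios are pooled counts over TMM library size, with exact 95% intervals. Sequences came from the mm9 genome, and peak positions were read against GENCODE vM1. The result of 1 list gene is not reported here.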

Additional observations from a re-analysis of the deposited data

Results flagged for a closer look

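In groups of 4 to 10 libraries (wild-type and P2-CTCF-KO HPCs), 18 sets of values were checked for a library far from the rest by Dixon's criterion, and 8 were picked out. Chance picks out about 1 in 20, and a set in which a single library has reads always qualifies. In P2-CTCF-KO HPCs, D10.1 stood apart for Prrx1 (0.678 CPM, 7 counts), Eya2 (2.32 CPM, 24 counts) and Eya1 (0.387 CPM, 4 counts, the lowest). In the same group D2.1 stood apart for Six2 (0.0698 CPM, 1 count), Foxc1 (0.140 CPM, 2 counts) and Foxc2 (0.140 CPM, 2 counts). In wild-type HPCs, B9.3 had the 1 count of Six2 (0.0859 CPM) and C6.1 that of Meox1 (0.0986 CPM). The library D2.1 also had 92 counts of Rspo3, 250 of Cdh5 and 16 of Eomes, and D10.1 had 192 of Col1a1 and 74 of Tnnt2. The part of these markers in the values above was not tested.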

How the results depend on the processing

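From undifferentiated mESC to wild-type mesoderm, genes called were 8895 (77.6% of those tested) on library totals without TMM factors (an alternative chosen after seeing the data), and members called were 2 there, 4 without the filter (20.7% of genes) and 3 with all 23 libraries fitted (22.8%). From mesoderm to HPCs, members called were 1, 2 and 1 under the same settings, beside 25.5%, 18.3% and 23.1% of genes. For P2-CTCF-KO against wild-type mesoderm, genes called were 166 with DESeq2, 199 without TMM factors, 431 without the filter and 18 with all libraries (1.97%, 2.3%, 2.49% and 0.144%), and members called were 1, 2, 2 and 1, each including Six2. Against P1-CTCF-KO these gave 98, 138, 267 and 5 genes, and 1 member without the filter (1.54% of genes). Without TMM factors the median of all genes moved to -1.83 from undifferentiated mESC to mesoderm and Eya1 to -1.46, opposite in sign to 0.21 with them. Leaving out each library gave 1091 to 2858 genes and 0 to 1 members for the first comparison (0 without undifferentiated library 1 or 2), 2424 to 3178 and 0 to 1 for mesoderm to HPCs (Eya2 without mesoderm B9.3 or HPC B9.3-2), 0 to 127 and 0 to 1 for P2-CTCF-KO against wild-type mesoderm (127, and Six2, without C6.1, and 7 without B9.3), and 0 to 2 and 0 for P2-CTCF-KO against P1-CTCF-KO. P1-CTCF-KO against wild-type mesoderm and both HPC comparisons stayed at 0. Peaks wider than the median gave 2 members in mesoderm (45.7% of genes) and 1 in HPCs (27.1%). The clones of wild-type mesoderm and HPCs did not deviate together (r -0.063 to 0.167), and with the clone as a replicate block 2047 genes (25.3%) and 0 members were called. The causes of these shifts were not tested. Pooled ratios without each library in turn were also added after seeing the data. At this depth Meox1, Foxc2 and Osr1 never reached 10 counts in a library.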
